A study of Homo sapiens with 6 samples.

Results

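MAF, WHSC1, FGFR3, NRAS, BRAF, DIS3, CRBN and PIM2 are 8 genes that recur in the molecular description of multiple myeloma, as partners of translocation, as mutated genes or as drug targets. They were chosen by symbol, and they are 8 of the 57290 genes in the deposited files. Their levels were read in KMM1 cells, a human line established from multiple myeloma, in 3 libraries from cells given a lentivirus that expresses TAZ (the TAZ libraries) and in 3 libraries from cells given the empty vector WPI (the WPI libraries). All cells had been infected with lentivirus, and polyadenylated RNA was taken on day 4. No source used here names the promoter that drives TAZ. TAZ, encoded by WWTR1, is the co-activator that the Hippo kinase cascade restrains.

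In myeloma, a malignancy of antibody-secreting plasma cells, a translocation can place an oncogene next to the enhancers of the immunoglobulin heavy chain locus. MAF, a basic leucine zipper transcription factor, is such a partner on chromosome 16. WHSC1 (also named NSD2 or MMSET), which methylates lysine 36 of histone H3, and FGFR3, a receptor tyrosine kinase for fibroblast growth factors, lie side by side on chromosome 4 and are activated together. NRAS, a small GTPase, and BRAF, the kinase it recruits, carry activating mutations in part of the tumours, and DIS3, a catalytic ribonuclease of the RNA exosome, carries mutations that impair it. CRBN (cereblon) is the substrate receptor of a CUL4 ubiquitin ligase and the protein that thalidomide analogues bind. PIM2 is a serine/threonine kinase that is highly expressed in myeloma and supports translation and survival.

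The libraries held 1130 to 1608 megabases of aligned sequence in the TAZ group and 1099.95 to 2033 megabases in the WPI group, of which 73.6% to 75.9% lay on annotated transcripts. WWTR1 had 216.0 ± 129.2 scaled TPM in TAZ libraries and 1.65 ± 0.61 in WPI libraries (mean ± SD, n = 3 each), so its level matched the labels. WPI library 3 had the lowest mean correlation with its own group, 0.911, against 0.909 with the TAZ libraries. WPI library 1 had 0.918 with its own group and 0.883 with the TAZ libraries, the lowest value between groups. TPM is a transcript level corrected for length and library, and it was scaled here between libraries. Separate cultures are not mentioned in the labels, so each p-value speaks of the spread among these 6 samples, and that spread may be technical. In bulk RNA, fewer cells of a type and less RNA per cell cannot be told apart.

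None of the 8 genes passed an adjusted p of 0.05 between TAZ and WPI cells (limma, Benjamini-Hochberg over 19390 tested genes), and 1 of them, MAF, had an unadjusted p under 0.05 (0.00183). The background was 623 genes called, 3.21% of those tested, with 436 (2.25%) higher and 187 (0.964%) lower in TAZ libraries. Unscaled, 533 were higher and 85 lower, with a median over all genes of 0.17 in log2, against -0.05 when scaled. The estimate was above 0 for 6 of the 8 genes, and their median was 0.22. TAZ and WPI libraries did not overlap for 1 of the 8, with TAZ above, against 24.9% of all tested genes without overlap, 10.1% with TAZ above and 14.8% with TAZ below. As 8 genes at a background of 3.21% would give few calls, their count says little about them as a group, and each is described by its own values.

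PIM2 had the highest level in both groups, at the 99.6th percentile in TAZ libraries and the 99.8th in WPI libraries. These percentiles rank the group mean among all genes with any level in that group, not among tested genes alone. In TAZ libraries the order was PIM2, WHSC1, FGFR3, MAF, NRAS, BRAF, CRBN and DIS3, and among neighbours only the ranges of BRAF and CRBN overlapped. In WPI libraries the order of means was the same, and the ranges overlapped between WHSC1 and FGFR3 and between CRBN and DIS3. This order holds for summed TPM only. For WHSC1 and PIM2 the sum depends on which transcripts received the bases, as given below. For NRAS, BRAF, DIS3 and CRBN it rests on few or thinly covered exons. DIS3, the lowest, lay at the 71.8th percentile in TAZ libraries and the 68.8th in WPI libraries.

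**Figure D1:**
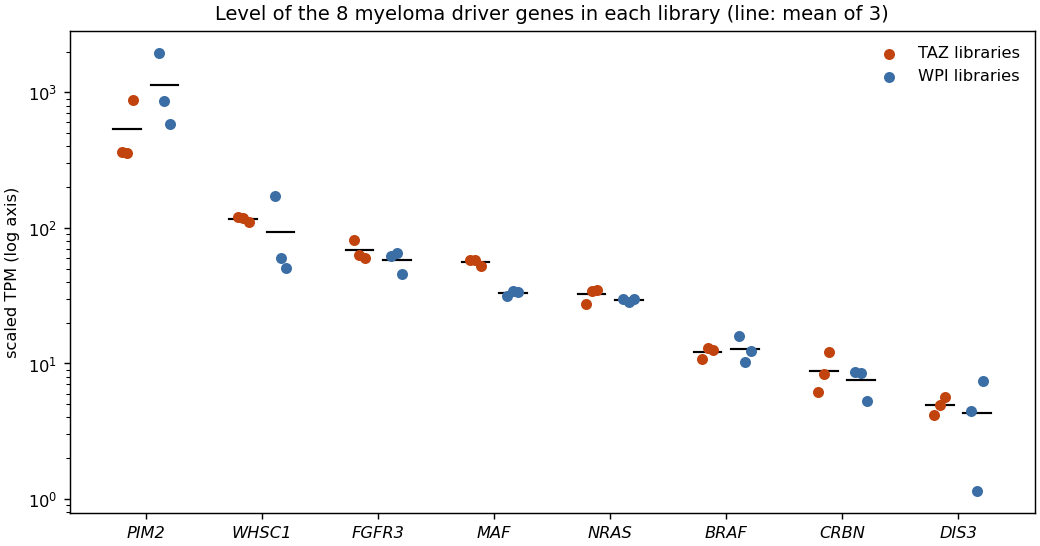
Scaled TPM (log axis) of each gene in each library, with TAZ libraries left of WPI libraries and a line at the mean of 3. MAF is the gene whose TAZ points (52.1 to 58.1) all lie above its WPI points (31.2 to 34.2), and PIM2, WHSC1 and DIS3 show the widest WPI spread.

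MAF (ENSG00000178573.6, hg19 chromosome 16, 79619740 to 79634611, minus strand) had 57.6, 58.1 and 52.1 scaled TPM in TAZ libraries 1 to 3, against 31.2, 34.2 and 33.8 in WPI libraries 1 to 3. Every TAZ library was above every WPI library, and the spread within each group was small. The mean was 55.9 ± 3.3 in TAZ and 33.1 ± 1.6 in WPI libraries (SD, n = 3), a ratio of 1.69. The log2 difference was 0.74 ± 0.15 (SE), and its adjusted p was 0.0541 (limma), just outside the threshold. The level was also measured as gene bases, the sequenced bases assigned to a gene per megabase of aligned sequence, which does not divide by transcript length as TPM does. It still rests on the depths that were estimated for each transcript. By gene bases MAF had 187.6, 187.5 and 169.8 in TAZ libraries and 100.9, 110.6 and 109.3 in WPI libraries, with a log2 difference of 0.76 ± 0.14 and an adjusted p of 0.0315 (limma, 3.77% of genes called). This measure was chosen after the data were seen. As 1 transcript held nearly all of MAF, its gene bases are close to its TPM values on another scale. For MAF the lower adjusted p by gene bases is thus no separate support. Over 17 other settings MAF ranged over log2 differences of 0.68 to 1.00 and adjusted p of 0.0269 to 0.245, and it passed the threshold in 5.

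The MAF signal came from 1 transcript in both groups. ENST00000393350.1, a single exon of 6384 bases (79628228 to 79634611), held 98.4% to 99.3% of the summed level in TAZ libraries and 98.0% to 99.0% in WPI libraries. Its own log2 difference was 0.75 ± 0.12 (limma, 29480 transcripts). The files give 1 average depth for this exon, so coding and untranslated parts of MAF cannot be compared.

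Because MAF was the member with the clearest difference, its promoter was read for known motifs. The stretch shown is the 150 bases before the RefSeq start of MAF (GRCh38.p14, chr16:79600738-79600887, minus strand), with a cAMP response element, TGACGTCA, in capitals. The element begins 45 bases before the start.

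MAF promoter: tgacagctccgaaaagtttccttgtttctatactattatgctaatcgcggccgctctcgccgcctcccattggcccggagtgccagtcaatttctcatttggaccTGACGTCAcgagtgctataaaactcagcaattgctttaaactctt

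In windows of 250 bases before to 50 after the start, searched on both strands, TGACGTCA was found in 1.85% of 35116 promoters. GGAATG, the motif of the TEAD factors through which TAZ acts, was found in 14% of promoters, and among the 8 genes in DIS3 alone. TGANTCA, the AP-1 motif, was found in 7.71% of promoters and in none of the 8 genes. CACGTG, an E box bound by MYC, was found in 7.26% of promoters and among the 8 genes in NRAS alone. A match is a string of letters, not a measured binding site, and the absence of one holds for this window only.

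Of 14 genes of the MAF family or linked to MAF in myeloma, 10 were tested, 3 were higher and 1 was lower in TAZ libraries, with a median log2 difference of 0.11 against -0.05 for all tested genes. Those called higher were MAFF, ITGB7 and CCR1, and the one called lower was CCND2. MAFF, a small MAF protein that lacks a transactivation domain, rose to 18.9 ± 2.6 scaled TPM in TAZ libraries, against 4.95 ± 0.61 in WPI libraries (log2 1.74 ± 0.18, adjusted p = 0.00401, limma). ITGB7, the beta 7 integrin chain and a known MAF target, had 775.6, 1320 and 500.3 in TAZ libraries and 129.2, 133.2 and 217.2 in WPI libraries (log2 2.36 ± 0.40, adjusted p = 0.0302, limma). All TAZ libraries lay above all WPI libraries for both genes, although ITGB7 varied widely among the TAZ libraries.

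CCR1, a chemokine receptor, rose to 8.19 ± 1.17 in TAZ libraries, against 3.39 ± 0.75 in WPI libraries (log2 1.07 ± 0.20, limma). CCND2, cyclin D2 and another known MAF target, had 95.9, 117.9 and 106.8 in TAZ libraries and 328.5, 344.0 and 243.5 in WPI libraries (log2 -1.50 ± 0.20, adjusted p = 0.0115, limma). So of the known MAF targets ITGB7 and CCND2, the first was higher and the second lower in the same libraries. CCR1, also listed as linked to MAF in myeloma, was higher. MAFF kept its call in 6 of 6 fits that left out 1 library, CCND2 in 3 (lost without TAZ 2, TAZ 3 or WPI 2), ITGB7 in 2 (lost without TAZ 1, TAZ 2, WPI 1 or WPI 2) and CCR1 in 0 of 6.

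WHSC1 (ENSG00000109685.13, chromosome 4, 1873151 to 1983934, plus strand, 27 listed transcripts) had 120.3, 118.3 and 109.7 scaled TPM in TAZ libraries and 171.8, 60.1 and 50.4 in WPI libraries. WPI library 1 was the highest of all and the other WPI libraries the lowest, so the groups overlapped. The means were 116.1 ± 5.6 in TAZ and 94.1 ± 67.5 in WPI libraries, with a log2 difference of 0.52 ± 0.45 (adjusted p = 0.574, limma). By gene bases the sign turned round. WHSC1 then had 124.0, 126.0 and 111.1 in TAZ libraries and 219.9, 153.2 and 150.1 in WPI libraries, a ratio of 0.69 (log2 -0.51 ± 0.19, adjusted p = 0.230, limma). Every TAZ library was below every WPI library on that measure, as for 14.9% of all tested genes.

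TPM counts a base given to a short transcript for more than one given to a long transcript, and the transcripts that received the WHSC1 bases differed between libraries. In TAZ libraries ENST00000509115.1 (1212 bases) and ENST00000508355.1 (2092 bases) held most of the level. In WPI library 1 it was ENST00000509115.1 and ENST00000508803.1 (4251 bases), and in WPI libraries 2 and 3 ENST00000508803.1 and ENST00000503128.1 (8568 bases). ENST00000508355.1 was the 1 transcript of the 8 genes that passed the test across transcripts (1.6% called). It had 45.1, 42.0 and 43.8 scaled TPM in TAZ libraries and 0.962, 0.912 and 0 in WPI libraries (log2 4.84 ± 0.31, adjusted p = 0.0036, limma). It made up 35.6% to 40.0% of WHSC1 in TAZ libraries and 0% to 1.52% in WPI libraries.

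**Figure D2:**
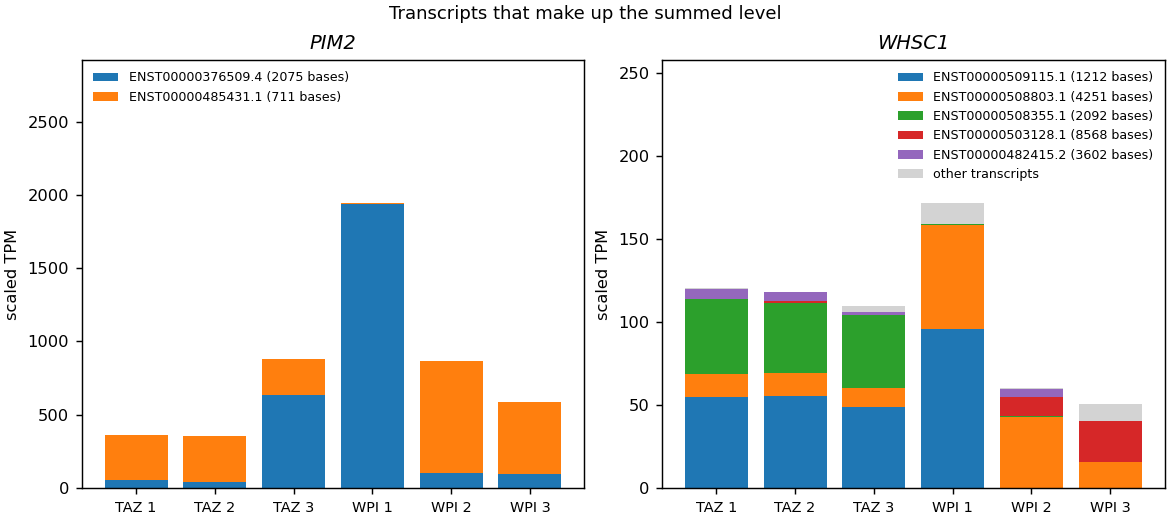
Scaled TPM of PIM2 (left) and WHSC1 (right) in each library, TAZ libraries left of WPI libraries, with stacked bars by transcript. The green part of WHSC1, ENST00000508355.1, is near 45 in the TAZ libraries and under 1 in the WPI libraries, and the split of PIM2 between a long and a short transcript differs among libraries of the same group.

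ENST00000508355.1 ends in an exon that begins like coding exon 7 of WHSC1 (1919868 to 1920350, 483 bases) and runs 564 bases further, into the intron. Over exon 7 itself the mean read depth per gigabase of aligned sequence was 46.2, 42.9 and 44.9 in TAZ libraries and 151.8, 128.4 and 98.8 in WPI libraries. Over the extension (1920351 to 1920914) it was the same 46.2, 42.9 and 44.9 in TAZ libraries and 0.984, 0.933 and 0 in WPI libraries. The files give 1 average depth per exon of a transcript, so where the reads lay within the 1047 bases cannot be read from them. Averaged over exon and extension together, depth was 44.6 ± 1.7 in TAZ and 58.6 ± 12.5 in WPI libraries, a ratio of 0.762. The large change of the transcript thus stood beside a modest difference in the bases over the same 1047 bases.

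Besides exon 7, 3 coding exons of WHSC1 had a depth above 20 in every library. Exon 4, which holds the start of the coding sequence (1902353 to 1902978), had a depth of 54.0, 54.0 and 47.7 in TAZ libraries and 93.8, 69.8 and 59.5 in WPI libraries, with TAZ below throughout. Exon 19 (1961198 to 1961467) had 32.8, 43.8 and 38.8 in TAZ libraries and 47.9, 44.2 and 40.9 in WPI libraries, and exon 22 (1977021 to 1977127) had 29.6 ± 4.6 in TAZ and 30.2 ± 5.3 in WPI libraries. The groups did not overlap at exon 4 and overlapped at exons 19 and 22. The share of exons without overlap over all genes was not counted, so no trend along the gene can be read from these exons. Of all tested genes, 14.8% had TAZ below without overlap by summed TPM. SCARNA22, a small RNA gene inside WHSC1 on the same strand, had 73.1 ± 14.0 scaled TPM in TAZ and 149.6 ± 120.3 in WPI libraries.

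All 12 genes of histone H3 lysine 36 methylation were tested and 0 passed the threshold, with 3 of 12 estimates above 0 and a median of -0.23. The largest differences were in SETMAR, which had 9.43 ± 1.36 scaled TPM in TAZ and 16.01 ± 2.34 in WPI libraries (log2 -0.70 ± 0.19), and in NSD1, a methyltransferase related to WHSC1, which had 6.08 ± 0.75 in TAZ and 9.62 ± 3.58 in WPI libraries.

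FGFR3 (ENSG00000068078.13, chromosome 4, 1795034 to 1810599, plus strand) had 81.25, 63.5 and 60.4 scaled TPM in TAZ libraries and 62.4, 65.4 and 46.0 in WPI libraries. The groups overlapped, with TAZ library 1 highest and WPI library 3 lowest. The means were 68.4 ± 11.3 in TAZ and 57.9 ± 10.4 in WPI libraries (log2 0.24 ± 0.21, adjusted p = 0.580, limma). The last exon (1808843 to 1810599, 1757 bases of which 147 are coding) held 67.3% to 80.3% of FGFR3 bases in TAZ and 70.2% to 72.7% in WPI libraries. Its depth was 61.3, 63.5 and 58.3 in TAZ libraries and 56.5, 56.9 and 41.4 in WPI libraries. The groups did not overlap there, by a narrow gap, and the share of such exons over all genes was not counted. Of all tested genes, 10.1% had TAZ above without overlap by summed TPM. The level was split among ENST00000340107.4, ENST00000481110.2 and ENST00000440486.2, and the split changed from library to library: ENST00000481110.2 held 89.8% in TAZ library 1 and 0% in TAZ libraries 2 and 3.

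FGFR3 was the most abundant of the fibroblast growth factor receptors in both groups. FGFR1 had 10.8 ± 1.6 scaled TPM in TAZ and 9.26 ± 0.66 in WPI libraries, and FGFR4 had 3.24 ± 1.93 in TAZ and 3.71 ± 1.94 in WPI libraries. FGFR2 was the 1 gene of 11 receptors and adaptors that passed the test. It had 4.76, 5.81 and 5.08 scaled TPM in TAZ libraries and 0.787, 0.823 and 0.769 in WPI libraries (log2 1.79 ± 0.17, adjusted p = 0.00271, limma), and it kept its call without any 1 library. The median of the 11 was 0.21, and 8 of them had an estimate above 0.

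Among 10 partners of heavy chain translocations, 7 were tested, 0 were higher and 2 were lower in TAZ libraries, with a median of -0.66. The 2 were CCND2, given above, and IRF4, a transcription factor that plasma cells require. IRF4 fell to 193.5, 222.0 and 185.4 scaled TPM in TAZ libraries, against 527.2, 454.2 and 348.4 in WPI libraries (log2 -1.13 ± 0.21, adjusted p = 0.0421, limma), with a call in 1 of 6 fits that left out a library (kept only without WPI 3). CCND3, cyclin D3, was the most abundant cyclin D gene by group means and in 5 of 6 libraries (CCND2 was higher in TAZ library 3), with 538.2, 407.0 and 55.3 in TAZ libraries and 654.8, 793.9 and 785.1 in WPI libraries (adjusted p = 0.338, limma). All TAZ values of CCND3 were lower than the WPI values, but TAZ library 3 stood far below the others. CCND1 was nearly absent, at 0.0162 ± 0.0024 in TAZ and 0.120 ± 0.053 in WPI libraries, and MYC had 315.5 ± 55.4 in TAZ and 503.8 ± 109.7 in WPI libraries (log2 -0.66 ± 0.24, adjusted p = 0.231, limma).

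**Figure D3:**
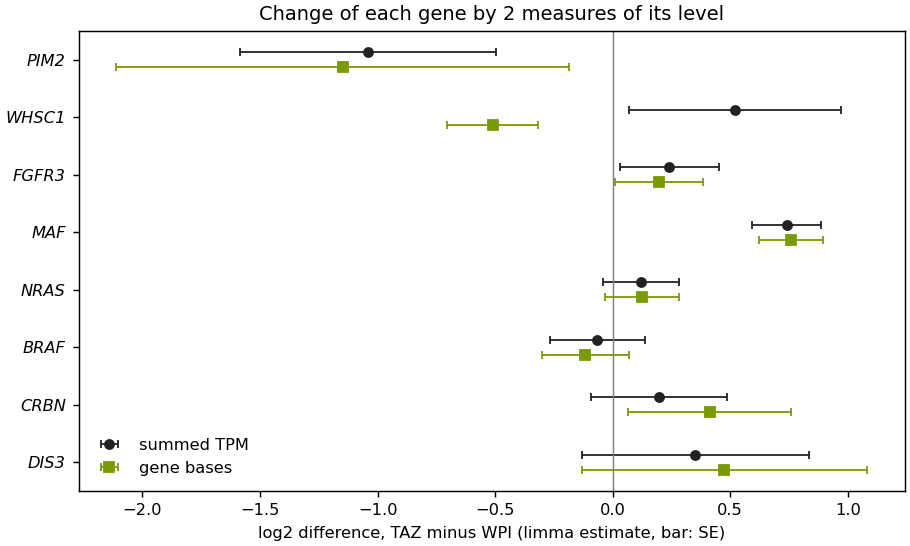
Log2 difference (TAZ minus WPI, with SE) of each gene by summed TPM (circles) and by gene bases (squares). MAF lies at 0.74 and 0.76, while WHSC1 lies at 0.52 by summed TPM and at -0.51 by gene bases.

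NRAS (ENSG00000213281.4, chromosome 1, 115247090 to 115259515, minus strand, 1 listed transcript) had 27.7, 34.2 and 35.05 scaled TPM in TAZ libraries and 30.1, 28.3 and 30.1 in WPI libraries. The WPI libraries lay within the range of the TAZ libraries. The means were 32.3 ± 4.0 in TAZ and 29.5 ± 1.1 in WPI libraries (log2 0.12 ± 0.16, adjusted p = 0.722, limma). The level rested on the last exon, 3582 bases with no coding base, which held 92.0% to 100% of NRAS bases in TAZ and 97.8% to 100% in WPI libraries.

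BRAF (ENSG00000157764.8, chromosome 7, 140419127 to 140624564, minus strand) had 10.7, 12.97 and 12.6 scaled TPM in TAZ libraries and 15.95, 10.25 and 12.4 in WPI libraries. The groups overlapped, with means of 12.1 ± 1.2 in TAZ and 12.9 ± 2.9 in WPI libraries (log2 -0.07 ± 0.20, adjusted p = 0.889, limma), and without scaling the estimate was 0.18. ENST00000496384.2, whose last exon is 7190 bases long (140419127 to 140426316), held 61.8% to 68.0% of the level in TAZ and 55.5% to 85.9% in WPI libraries. That exon overlaps NDUFB2 on the opposite strand, which had 76.1 ± 6.0 in TAZ and 72.1 ± 10.2 in WPI libraries, and no source used here says whether reads were assigned by strand. The pseudogene BRAFP1 had 1.62 ± 0.11 in TAZ and 2.59 ± 0.74 in WPI libraries, and reads it shares with BRAF make both values less certain.

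Most coding exons of both genes were listed at 0. Of the 4 NRAS exons with coding bases, 3 were listed at 0 in every library, and the other was above 0 in WPI library 1 alone. Of the 18 coding exons of BRAF, 13 were listed at 0 in every library and 2 were above 0 in every library.

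**Figure D4:**
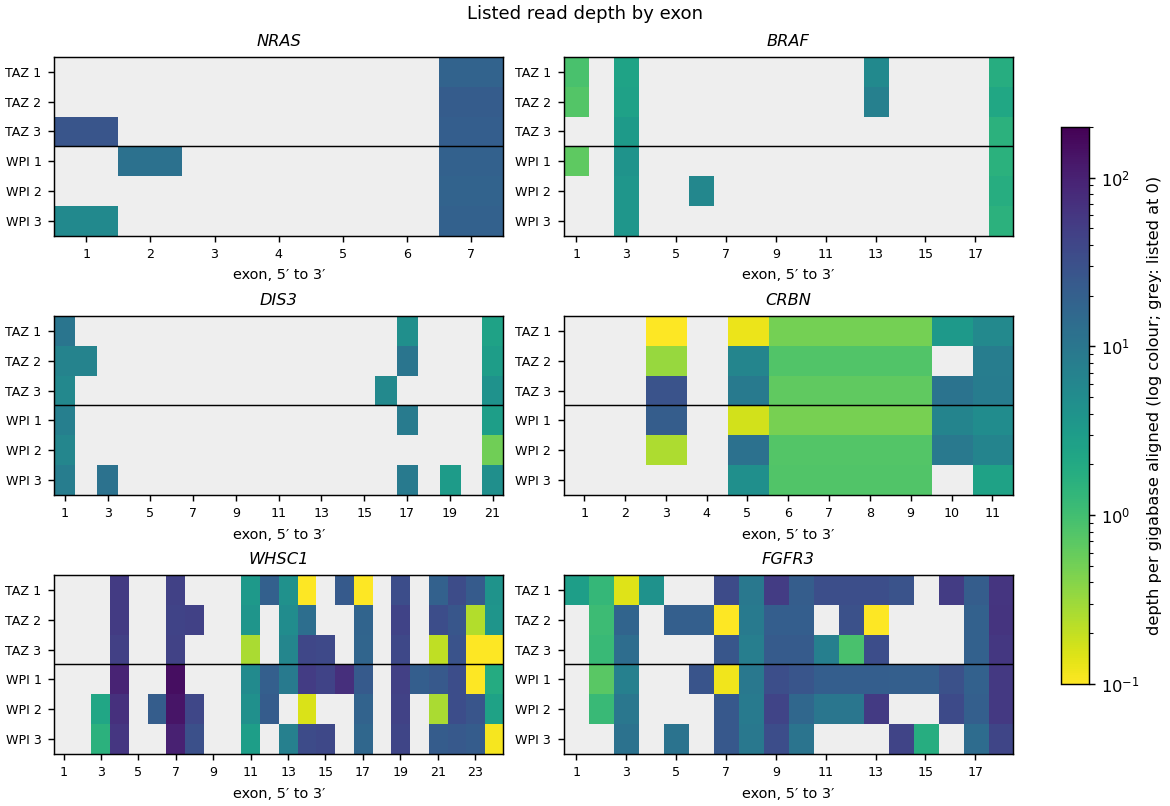
Listed read depth per exon of 6 genes, exons in 5′ to 3′ order across and libraries down, TAZ above WPI, with a log colour scale and grey for exons listed at 0. NRAS, BRAF and DIS3 are grey at most coding exons in all libraries, while WHSC1 and FGFR3 have depth over much of their length.

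Zeros at inner exons were not limited to these genes. Across 190 genes with 1 transcript, at least 4 exons and a mean of at least 10 TPM, 62.5% to 66.2% of 1129 inner exons were listed at 0 in TAZ libraries and 59.4% to 70.7% in WPI libraries. The last exons of the same genes were listed at 0 in 11.6% to 17.4% of cases in TAZ libraries and 11.6% to 18.9% in WPI libraries. An exon listed at 0 in these files therefore does not show that it was not transcribed.

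Of 25 genes of the RAS, RAF, MEK and ERK core, 24 were tested, and 2 were higher and 0 lower in TAZ libraries, with a median of 0.12. RASA1, a GTPase-activating protein that switches RAS off, had 6.59, 8.23 and 7.64 scaled TPM in TAZ libraries and 3.77, 3.84 and 3.59 in WPI libraries (log2 0.84 ± 0.16, adjusted p = 0.0453, limma). RASGRP3, an exchange factor that switches RAS on, had 13.1, 14.7 and 14.85 in TAZ libraries and 6.32, 6.77 and 4.49 in WPI libraries (log2 1.16 ± 0.19, adjusted p = 0.0259, limma). Both genes were higher in every TAZ library than in every WPI library, and they act on RAS in opposite directions. RASA1 kept its call in 0 of 6 fits without a library and RASGRP3 in 1 of 6 (kept only without WPI 3).

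DIS3 (ENSG00000083520.10, chromosome 13, 73329540 to 73356234, minus strand) had 4.18, 4.91 and 5.66 scaled TPM in TAZ libraries and 4.47, 1.15 and 7.37 in WPI libraries. All TAZ values lay inside the wide WPI range. The means were 4.92 ± 0.74 in TAZ and 4.33 ± 3.12 in WPI libraries (log2 0.35 ± 0.48, adjusted p = 0.729, limma), and without WPI library 2 the log2 difference was -0.20. The last exon (73329540 to 73334016, 84 of 4477 bases coding) held 70.4% to 87.1% of DIS3 bases in TAZ and 54.1% to 74.4% in WPI libraries, and 14 of 21 coding exons were listed at 0 throughout. BORA overlaps DIS3 at this end on the opposite strand, with 8.86 ± 1.45 scaled TPM in TAZ and 11.4 ± 1.3 in WPI libraries. All 24 RNA exosome genes and cofactors were tested and 0 passed, with 6 of 24 estimates above 0 and a median of -0.24. The largest differences were in 2 subunits of the exosome ring. EXOSC9 had 1.93 ± 1.67 scaled TPM in TAZ and 8.68 ± 6.05 in WPI libraries (adjusted p = 0.332, limma), and EXOSC8 had 11.0 ± 7.7 in TAZ and 18.8 ± 6.7 in WPI libraries.

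CRBN (ENSG00000113851.9, chromosome 3, 3190676 to 3221394, minus strand) had 6.15, 8.36 and 12.1 scaled TPM in TAZ libraries and 8.68, 8.54 and 5.29 in WPI libraries. TAZ library 3 was the highest and WPI library 3 the lowest, and the groups overlapped. The means were 8.86 ± 3.00 in TAZ and 7.50 ± 1.92 in WPI libraries (log2 0.20 ± 0.29, adjusted p = 0.746, limma). The difference was -0.03 without TAZ library 3 and -0.01 without WPI library 3, so its sign rested on either library. ENST00000491834.1 held 75.9% to 82.5% of CRBN in TAZ and 53.4% to 75.3% in WPI libraries. One of its exons (3195108 to 3197965) runs across exons 6 to 9 of the coding transcript and the introns between them, at a depth of 0.64 ± 0.14 in TAZ and 0.68 ± 0.18 in WPI libraries. The last exon of ENST00000491834.1 (3190676 to 3192729) overlaps TRNT1 on the opposite strand. TRNT1 had 15.2 ± 3.4 scaled TPM in TAZ and 15.9 ± 1.2 in WPI libraries. The coding transcript ENST00000231948.4 itself was listed at 0. Exon 10 (3194140 to 3194271) had a depth of 3.39, 0 and 11.2 in TAZ libraries and 6.49, 9.30 and 0 in WPI libraries, so it was listed at 0 in 1 library of each group.

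All 20 genes of the CRBN ligase and its targets were tested, and 0 were higher and 1 was lower in TAZ libraries, with a median of -0.23. CUL4A, the cullin scaffold of the ligase, fell to 4.21, 12.1 and 5.54 scaled TPM in TAZ libraries, against 22.5, 37.8 and 28.4 in WPI libraries (log2 -1.97 ± 0.38, adjusted p = 0.0488, limma). The groups did not overlap, but the call held in 1 of 6 fits that left out a library (kept only without TAZ 2).

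PIM2 (ENSG00000102096.9, chromosome X, 48770459 to 48776301, minus strand) had 363.0, 355.1 and 883.1 scaled TPM in TAZ libraries and 1947, 868.0 and 587.1 in WPI libraries. WPI library 1 stood far above the rest, and TAZ library 3 lay among the WPI libraries. The means were 533.7 ± 302.6 in TAZ and 1134 ± 718 in WPI libraries, a ratio of 0.471 (log2 -1.04 ± 0.54, adjusted p = 0.366, limma). Without WPI library 1 the log2 difference was -0.56, and without TAZ library 3 it was -1.48.

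As for WHSC1, the split between transcripts differed between libraries. The relation to the sum was the reverse: WHSC1 was higher where a short transcript held much, and PIM2 where the long one did. ENST00000376509.4 (2075 bases), which carries the coding sequence, had 54.6, 41.9 and 631.6 scaled TPM in TAZ libraries and 1942, 104.2 and 98.5 in WPI libraries. ENST00000485431.1 (711 bases) had 308.4, 313.2 and 251.5 in TAZ libraries and 5.74, 763.8 and 488.6 in WPI libraries. The libraries with the highest summed PIM2 within each group, TAZ 3 and WPI 1, were those in which the long transcript held most. By gene bases PIM2 had 170.5, 158.0 and 763.4 in TAZ libraries and 2065, 388.6 and 281.2 in WPI libraries (log2 -1.15 ± 0.96, adjusted p = 0.565, limma). The groups overlapped, and TAZ 3 and WPI 1 stood out within their groups more than by summed TPM. Over the whole last exon of the long transcript (48770459 to 48771571) depth was 107.1, 108.9 and 570.4 in TAZ libraries and 1393, 252.2 and 168.0 in WPI libraries, with the same libraries high. By these measures, any difference in PIM2 between the groups could not be separated from the spread among libraries of 1 group. Over the 191 bases of the last exon that both transcripts hold (48771381 to 48771571), the listed depths of the groups did not overlap. They were 594.5, 601.8 and 570.4 in TAZ libraries and 1393, 1457 and 936.0 in WPI libraries, a ratio of 0.467. The other 922 bases of that exon had 6.18, 6.84 and 570.4 in TAZ libraries and 1393, 2.54 and 8.90 in WPI libraries. So TAZ 3 and WPI 1 show averages over the whole long exon, and the other libraries mostly the exon of the short transcript. These averages cover unlike stretches, so neither the gap nor the ratio can be read as a difference over the 191 bases. This stretch was not tested, and the share of such stretches without overlap over all genes was not counted.

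Of 14 PIM kinases and substrates, all were tested, 1 was higher and 1 was lower in TAZ libraries, and the median was -0.13. CDKN1A (p21), a cyclin-dependent kinase inhibitor that PIM kinases phosphorylate, rose to 18.3, 12.1 and 13.7 scaled TPM in TAZ libraries, against 5.21, 5.30 and 5.66 in WPI libraries (log2 1.28 ± 0.19, adjusted p = 0.0186, limma). CXCR4, the chemokine receptor that holds plasma cells in the bone marrow, fell to 4.79, 5.58 and 6.44 in TAZ libraries, against 41.6, 39.8 and 20.4 in WPI libraries (log2 -2.35 ± 0.30, adjusted p = 0.00965, limma). The groups were apart for both genes. CXCR4 kept its call in 5 of 6 fits that left out a library (lost without TAZ 2) and CDKN1A in 2 of 6 (lost without TAZ 2, TAZ 3, WPI 1 or WPI 2).

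**Figure D5:**
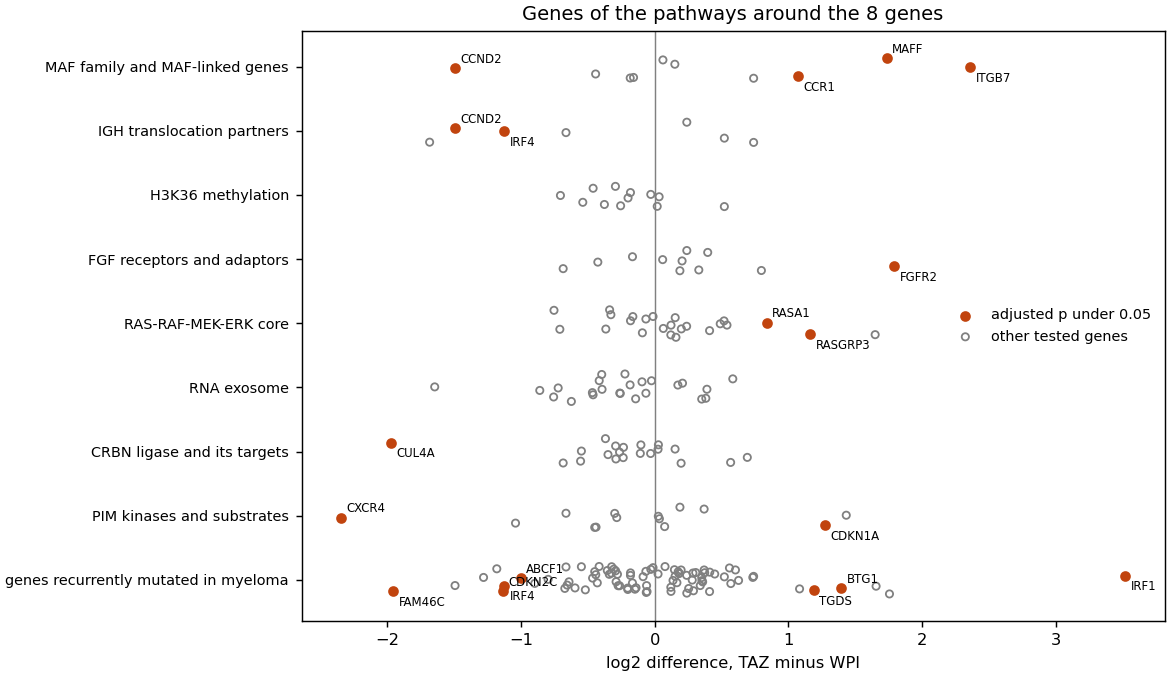
Log2 difference (TAZ minus WPI) of every tested gene in the 9 lists around the 8 genes, with genes at adjusted p under 0.05 filled and named. IRF1 at 3.52 and CXCR4 at -2.35 mark the range of the called genes, and the lists for H3K36 methylation and the RNA exosome hold none.

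All of the 8 genes but PIM2 belong to a wider list of 89 genes that are recurrently mutated in myeloma, as each also belongs to the lists of its own pathway above. Of these, 86 were tested, 3 were higher and 4 were lower in TAZ libraries, with a median of -0.04 against -0.05 for all tested genes. IRF1, an interferon-induced transcription factor, rose to 86.7, 73.2 and 78.0 scaled TPM in TAZ libraries, against 6.28, 6.07 and 5.65 in WPI libraries (log2 3.52 ± 0.15, adjusted p = 0.000228, limma). BTG1, an antiproliferative gene, rose to 131.7 ± 3.7 in TAZ libraries, against 49.6 ± 4.5 in WPI libraries, and TGDS to 11.4 ± 1.5, against 4.44 ± 0.96 in WPI libraries. FAM46C, a poly(A) polymerase that acts as a tumour suppressor in myeloma, fell to 5.75, 7.54 and 6.05 in TAZ libraries, against 36.8, 27.0 and 21.4 in WPI libraries (log2 -1.96 ± 0.23, adjusted p = 0.00759, limma).

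CDKN2C (p18), another inhibitor of cyclin-dependent kinases, fell to 63.2 ± 12.3 in TAZ libraries, against 138.7 ± 18.1 in WPI libraries, and ABCF1 to 123.9 ± 13.1, against 249.2 ± 30.4 in WPI libraries. IRF4, given above, was the other gene called lower. IRF1, BTG1 and FAM46C kept their calls in 6 of 6 fits that left out a library, ABCF1 in 2 (lost without TAZ 2, TAZ 3, WPI 1 or WPI 2), and TGDS and CDKN2C in 0.

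Marker genes were read to check what the libraries hold. The 8 plasma cell markers were all tested, with summed levels of 1100 to 1280 scaled TPM in TAZ and 1180 to 1960 in WPI libraries, and 3 were lower in TAZ libraries. SDC1 (CD138) fell to 72.6 ± 7.1, against 196.6 ± 9.97 in WPI libraries, SLAMF7 fell to 55.1 ± 8.0, against 175.0 ± 53.3 in WPI libraries, and the last was IRF4. Of 6 epithelial markers, 5 were tested and KRT8, KRT18 and CLDN4 were higher, with sums of 970 to 2310 in TAZ and 198 to 326 in WPI libraries, mostly KRT8. CDH1 (E-cadherin) had 25.2 ± 7.1 in TAZ and 48.7 ± 10.5 in WPI libraries (log2 -0.94 ± 0.28, adjusted p = 0.161, limma), with every TAZ library below every WPI library. KRT19 had at most 0.113, and EPCAM had 49.1 ± 5.9 in TAZ and 53.3 ± 27.1 in WPI libraries. The 6 T and NK cell markers summed to 1.01 to 1.57 in TAZ and 0.729 to 1.22 in WPI libraries with NKG7 at 0, and none was tested. The 5 myeloid markers found summed to 1.95 to 2.00 in TAZ and 5.09 to 5.87 in WPI libraries, S100A9 was at 0, and CD14 was lower in TAZ libraries, at 1.51 ± 0.21, against 4.23 ± 0.87 in WPI libraries. The 6 fibroblast markers summed to 3.17 to 3.62 in TAZ and 2.08 to 2.86 in WPI libraries, with COL1A1 alone tested and not called. SDC1 and KRT18 kept their calls in 6 of 6 fits that left out a library, KRT8 in 4 (lost without WPI 1 or WPI 2), CLDN4 in 3 (lost without TAZ 2, WPI 1 or WPI 2), SLAMF7 in 1 (kept only without WPI 3) and CD14 in 0. The part of the plasma cell and epithelial markers in the values of the 8 genes was not tested.

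For each of the 8 genes the tested gene with the most similar pattern over the 6 libraries was found, as the smallest root mean square difference of centred log2 levels. The pattern most like that of MAF was that of PTENP1 (difference 0.0521, where the MAF pattern itself has a root mean square of 0.375), which had 30.7 ± 2.8 scaled TPM in TAZ and 18.3 ± 1.6 in WPI libraries. The nearest genes of the others were CTA-14H9.5 for WHSC1 (0.0997), PSD4 for FGFR3 (0.057), NAT1 for NRAS (0.0364), MLK4 for BRAF (0.0397), NSL1 for DIS3 (0.148), AC020606.1 for CRBN (0.0551) and RP11-689B22.2 for PIM2 (0.217). These likenesses over 6 libraries are descriptions with no test.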

How the data were processed

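Polyadenylated RNA of 3 TAZ and 3 WPI libraries was sequenced on an Ion Torrent Proton, 2 libraries to a chip, per the labels' protocols, and no source used here says which. Per the submitters' processing notes, STAR 2.3.0, Bowtie2 2.0.0, StringTie 1.3.3b and hg19 were used. The deposited files, 1 StringTie run per library without pooling per the file headers, give coverage, FPKM and TPM for each of 195984 transcripts, and no read counts. They hold these values as text attributes in 1 column, so the other values in that column, such as names, were read alongside them. No source used here gives the annotation release. Reads of near-identical or overlapping genes may be divided between them.

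TPM deposited by the authors was summed per gene, scaled by the median of ratios over 28148 genes above 0 in every library, and tested on log2(scaled TPM + 1) for 19390 genes that averaged 1 TPM or more, with limma 3.58.1 in R 4.3.3 (eBayes with trend and robust, no block, Benjamini-Hochberg at 0.05). Fold changes on this scale understate changes of low genes. Gene bases and exon depths were computed from the deposited coverage and length, relative to the aligned bases that the ratio of coverage to FPKM gives. Coding exons were assigned by matching exon lengths to GENCODE 29. Precision is limited by 3 libraries per group, and the median SE of tested genes was 0.242. The procedure was tested on simulated data, and the outcome is not given here, so no result rests on it. Deviations of same-numbered libraries from their group means correlated at 0.004, -0.024 and -0.055, and those of differently numbered libraries at -0.042 to 0.070. No pairing by replicate number was seen. With 3 libraries per group these values cannot show whether same-numbered libraries were handled together.

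The 8 genes and the gene lists were chosen with earlier results of these data known. Named genes are the 8, every called gene of the lists, in a list without a call the pair with the largest absolute difference, and the gene with the nearest pattern; others named are receptors, cyclins, MYC and markers named with their values after these were seen. Alternatives covered scaling, pseudocount (0.1 and 5), filters, FPKM, eBayes settings, the replicate block, each library left out and, added after the data were seen, gene bases. Some items are not reported here.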

Additional observations from a re-analysis of the deposited data

How the results depend on the processing

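Of the 8 genes, FGFR3, NRAS and PIM2 kept their direction and stayed outside the threshold in 17 of 17 other settings. MAF was higher in TAZ libraries in all 17 and passed the threshold without scaling (log2 1.00, adjusted p = 0.0305), with quantile normalization (0.87), rescaled to protein-coding genes (0.88), with a filter at a mean of 5 TPM (0.74) and by gene bases (0.76), by limma; leaving out 1 library gave 0.70 to 0.78. WHSC1 reversed by gene bases (-0.51) and lay between 0.18 and 1.06 with 1 library left out. BRAF reversed without scaling (0.18) and rescaled to protein-coding genes (0.064), and ran from -0.21 to 0.092 with 1 library left out. DIS3 ran from -0.20 to 0.79, CRBN from -0.032 to 0.41 and PIM2 from -1.48 to -0.56 with 1 library left out. DIS3 gave no value under the filter at 5 TPM. Without a filter on low values 352 genes were called. With the replicate block 236 were called, MAF had an adjusted p of 0.180 (limma), and no member changed its call. Leaving out 1 library gave 270 to 765 calls, and 1 to 2 transcripts of the 8 genes. Of the called genes, WWTR1, IRF1, MAFF, FGFR2 and KRT18 kept their calls in every setting that gave a value; IRF4, SLAMF7, TGDS, CDKN2C, CUL4A, RASA1, RASGRP3, CCR1, CD14, ABCF1, CDKN1A and ITGB7 were called in 5 to 11 of them, and the others in 12 to 16. The cause of these shifts was not tested. The levels of DIS3 and CRBN, with group means under 10 TPM, rest on few or thinly covered exons. Few covered exons also underlie NRAS and BRAF, whose group means were above 10 TPM.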
